A study of Mus musculus with 2 samples.

Results

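The summits described here are places where acetylation of histone H3 at lysine 27 (H3K27ac) was called with a high score at 1 gene in macrophages of control mice and was not called nearby in macrophages without Tle4. They were chosen by 2 measured values, the WT score of the summit and the absence of a Tle4cKO summit, and by position. A summit was taken when it lay on chromosome 1 to 19 or X, had a score of 7 or more in the WT list, was no more than 1 kb from the outer end of exactly 1 protein-coding gene, and had no Tle4cKO summit within 5 kb. In all, 454 of 10478 deposited WT summits met these conditions, and they marked 453 genes, since Cacybp had 2 of them. The score is the authors' −log10 value of a p- or q-value for each peak. It ranks summits within a list and is not a level of acetylation.

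H3K27ac was profiled by CUT&Tag, in which an antibody brings a transposase to marked chromatin so that DNA there is cut and tagged for sequencing. Macrophages that were Siglec-F-negative, Ly6C-low and CD64-positive were sorted from the colon of male C57BL/6 mice at 11.1 weeks of age. The WT mice carried Lyz2-Cre, and the Tle4cKO mice carried Lyz2-Cre with floxed Tle4 (Tle4f/f Lyz2-Cre), so that both groups express the recombinase. Cells of 4 mice were pooled for each genotype before the assay, giving 1 library per genotype and no replicate. Lyz2-Cre acts in myeloid cells in general and not in colonic macrophages alone.

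H3K27ac is deposited on the nucleosomes that flank active promoters and enhancers and is widely used as a mark of both. Tle4 belongs to the Groucho family of corepressors, which do not bind DNA themselves and are brought to genes by transcription factors, where they recruit histone deacetylases. Macrophages of the colon are phagocytes replenished from blood monocytes. Their promoters include those of genes every cell uses as well as those of myeloid receptors.

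The Tle4cKO list was the shorter, with 2352 summits, and on chromosomes 1 to 19 and X there were 4.47 WT summits for each Tle4cKO summit. Neither list had a summit in Tle4 or within 10 kb of it, so the lists hold no check of the genotype labels. Read depth was unknown, and scores of this kind grow with depth. A summit that is absent from the Tle4cKO list was not called there and may still carry signal under the threshold. Less acetylation per cell and fewer acetylated cells cannot be told apart in pooled cells. No test between genotypes was possible, and the difference in list length between the libraries stands beside every count given here. Its part in the choice of these summits was not tested.

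To show promoters near the summits, promoter windows from RefSeq (GRCm38.p6, the assembly behind mm10) are given for 4 of the genes with the highest scores. The WT summits of these 4 genes lay outside the printed windows, so the sequences are neighbouring DNA. Each window runs from 250 bases before to 50 bases after an annotated gene start, is written in the direction of the gene, and has matches to the searched motifs in capitals. Gosr1 encodes a SNARE of the Golgi, Calm3 a calmodulin, Siah1b a ubiquitin ligase and Use1 a SNARE of the endoplasmic reticulum. Their windows lie at chr11:76763529-76763828 on the minus strand, chr7:16923983-16924282 on the minus strand, chrX:164076444-164076743 on the minus strand and chr8:71366967-71367266 on the plus strand.
Gosr1: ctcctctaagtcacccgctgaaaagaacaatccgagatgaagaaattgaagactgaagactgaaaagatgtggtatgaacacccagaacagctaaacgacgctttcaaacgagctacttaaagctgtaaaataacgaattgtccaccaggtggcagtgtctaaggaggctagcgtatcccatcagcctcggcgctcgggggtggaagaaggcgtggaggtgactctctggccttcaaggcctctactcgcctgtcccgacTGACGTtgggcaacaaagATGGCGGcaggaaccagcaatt
Calm3: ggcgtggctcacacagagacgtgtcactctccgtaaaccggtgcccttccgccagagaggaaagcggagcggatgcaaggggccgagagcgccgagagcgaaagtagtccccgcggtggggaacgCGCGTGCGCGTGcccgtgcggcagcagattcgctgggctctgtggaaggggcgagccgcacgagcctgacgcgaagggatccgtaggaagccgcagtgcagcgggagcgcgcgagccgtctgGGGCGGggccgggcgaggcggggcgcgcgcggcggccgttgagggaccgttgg
Siah1b: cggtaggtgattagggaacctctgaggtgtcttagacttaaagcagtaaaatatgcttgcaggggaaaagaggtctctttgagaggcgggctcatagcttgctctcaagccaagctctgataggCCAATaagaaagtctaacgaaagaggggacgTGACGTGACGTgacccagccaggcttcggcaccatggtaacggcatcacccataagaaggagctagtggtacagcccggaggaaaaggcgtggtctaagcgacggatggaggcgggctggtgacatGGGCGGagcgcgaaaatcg
Use1: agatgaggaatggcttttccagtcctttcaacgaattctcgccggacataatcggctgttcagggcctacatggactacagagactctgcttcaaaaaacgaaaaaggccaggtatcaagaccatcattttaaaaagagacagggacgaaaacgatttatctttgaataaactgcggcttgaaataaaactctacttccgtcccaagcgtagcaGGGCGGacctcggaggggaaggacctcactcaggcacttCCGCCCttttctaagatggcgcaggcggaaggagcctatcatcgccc

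These windows are rich in the dinucleotide CpG. The CpG ratio, the number of CpG dinucleotides over that expected from the C and G content, was 0.77 in Gosr1, 1.19 in Calm3, 0.83 in Siah1b and 0.89 in Use1. In the Gosr1 window the capitals mark a cAMP-response element (CRE) core that starts 10 bases after the gene start and a YY1 core that starts 28 bases after it. The Calm3 window holds a GC box 3 bases before the start and a pair of HES cores that begin 125 and 119 bases before it. Siah1b has a CCAAT box 126 bases before its start, overlapping CRE cores 95 and 90 bases before it and a GC box 31 bases after it. Use1 has GC boxes that begin 36 bases before and 3 bases after its start. A match is a description of letters and no evidence that a factor bound there.

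A second set of windows shows promoters of the other kind, poor in CpG, from genes with a macrophage or immune role. They were picked after their values had been seen. Lipa encodes the lysosomal acid lipase, Selenop the selenium carrier selenoprotein P, Ifi206 a member of the interferon-induced Ifi200 family and Clec4a3 a C-type lectin receptor of myeloid cells. Their windows lie at chr19:34527425-34527724 on the minus strand, chr15:3270517-3270816 on the plus strand, chr1:173491269-173491568 on the minus strand and chr6:122952265-122952564 on the plus strand.
Lipa: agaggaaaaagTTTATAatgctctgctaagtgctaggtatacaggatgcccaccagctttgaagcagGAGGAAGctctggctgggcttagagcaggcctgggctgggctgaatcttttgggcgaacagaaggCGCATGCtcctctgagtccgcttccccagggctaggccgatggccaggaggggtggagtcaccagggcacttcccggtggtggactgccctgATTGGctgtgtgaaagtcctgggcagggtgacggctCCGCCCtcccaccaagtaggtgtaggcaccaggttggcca
Selenop: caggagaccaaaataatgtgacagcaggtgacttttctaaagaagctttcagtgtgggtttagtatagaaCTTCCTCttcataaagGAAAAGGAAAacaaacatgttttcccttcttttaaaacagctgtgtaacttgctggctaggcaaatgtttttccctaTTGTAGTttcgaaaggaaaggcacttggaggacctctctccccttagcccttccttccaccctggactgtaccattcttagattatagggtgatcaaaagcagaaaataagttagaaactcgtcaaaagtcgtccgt
Ifi206: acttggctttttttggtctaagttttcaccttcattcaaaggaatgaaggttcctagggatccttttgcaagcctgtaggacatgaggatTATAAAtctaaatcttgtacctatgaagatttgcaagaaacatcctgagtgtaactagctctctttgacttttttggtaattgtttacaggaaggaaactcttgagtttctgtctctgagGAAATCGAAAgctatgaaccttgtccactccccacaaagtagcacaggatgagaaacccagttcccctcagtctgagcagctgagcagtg
Clec4a3: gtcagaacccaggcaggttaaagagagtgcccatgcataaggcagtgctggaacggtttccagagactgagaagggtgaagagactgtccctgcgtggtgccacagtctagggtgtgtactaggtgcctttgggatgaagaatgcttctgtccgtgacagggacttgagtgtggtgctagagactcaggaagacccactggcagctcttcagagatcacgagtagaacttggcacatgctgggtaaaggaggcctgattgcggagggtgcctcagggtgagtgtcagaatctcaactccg

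The CpG ratio of these windows was 0.27 in Lipa, 0.32 in Selenop, 0.078 in Ifi206 and 0.29 in Clec4a3. The Selenop window holds a core of the type bound by PU.1, the master factor of the myeloid lineage, that begins 180 bases before the start. An interferon-stimulated response element (ISRE) pattern and a ZNF143 core begin 164 and 87 bases before the start. The Ifi206 window holds an ISRE pattern 40 bases before the start and a TATA element 160 bases before it. Lipa has a TATA element 239 bases, a PU.1-type core 183 bases, an NRF1 core 118 bases and a CCAAT box 26 bases before its start. A GC box begins 10 bases after the start of Lipa. In Clec4a3 none of the 18 motifs searched was found in the window. The WT summits lay 19 bases after the start of Selenop and 75 bases before that of Clec4a3, inside the printed windows.

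Scores among the 454 summits ran from 7 to 20.2, with a median of 8.30 and a middle range of 7.54 to 9.75. They were not the top of the WT list: the highest of them, at Gosr1 (position 76763354 of chromosome 11), ranked 94th and the median rank was 1079 of 10460. After Gosr1 came 0610009B22Rik at 18.1, Calm3 at 15.6, Siah1b at 15.4 and Use1 at 15.2. High scores were also found at Nek9, a mitotic kinase (14.1), Mbd5, a methyl-CpG-binding-domain protein (13.996), Atf7, a transcription factor of the ATF family (13.9), Sertad2 (13.7), Acyp2 (13.4) and the phosphatase gene Ptp4a1 (13.3). Dnm1l, the dynamin-like GTPase of mitochondrial fission, scored 13.1, and Ptpn2, a phosphatase that acts on JAK and STAT proteins, 12.8. In all, 96 summits scored 10 or more, 171 scored from 8 to under 10, and 187 scored from 7 to under 8.

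The threshold values are as follows. The summit of lowest score that was included lay at Ubqln1, less than 0.01 above the minimum of 7, followed by Ube2v2 and Polr2c with 7.01 each. The highest scores left out by the minimum, each without a Tle4cKO summit within 5 kb, were 6.999 at Avl9 and 6.996 at Pex14 and at Trappc8. The included summit nearest to a Tle4cKO summit lay at Pnn, 5893 bp away, and the left-out summit at the largest distance under 5 kb lay at Zscan2, 3974 bp away. Polr1a, Zfp746 and Zfp384 had summits 1089, 1015 and 1012 bp from a gene end, outside the window of 1 kb.

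The 454 summits were 54.7% of the 830 single-gene end WT summits with a score of 7 or more. Another 368 of the 830 had a Tle4cKO summit within 500 bp, and are called here summits called in both, and 8 had their nearest Tle4cKO summit more than 500 bp and at most 5 kb away. Those 8 lay at Rb1cc1, Ewsr1, Rac2, Zfp120, Slc7a1, Zscan2, Nek1 and Mid1. Among all WT summits scoring 7 or more, 50.8% had no Tle4cKO summit within 5 kb, and among all WT summits 80.0% had none. The condition on Tle4cKO is part of the choice of these summits, so these shares describe it and test nothing.

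**Figure D1:**
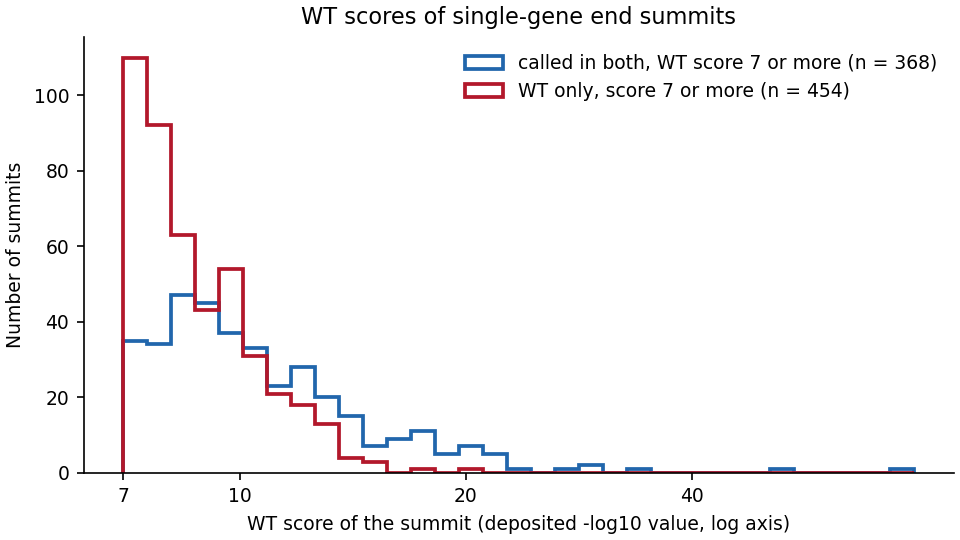
Number of single-gene end WT summits (y axis) by WT score (x axis, the deposited score, read as a −log10 value, on a log axis). Lines show the 454 summits called in WT only (red) and the 368 called in both lists (blue). The WT-only summits gather between 7 and 10 and end at 20.2, while 18 summits called in both lie above that value.

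The summits called in both had higher WT scores, with a median of 9.81 and a highest value of 78.2, and 18 of them scored above Gosr1. Within the single-gene end summits, the share without a Tle4cKO summit was 74.2% (95% interval 68.3 to 79.5%) of 252 at scores from 7 to under 8 and 56.6% (50.8 to 62.3%) of 302 at scores from 8 to under 10. It was 34.8% (29.2 to 40.7%) of 276 at 10 or more. These are Clopper-Pearson (exact) limits, which hold counting error alone. At the ends of several genes the share at 10 or more was 29.8% (20.3 to 40.7%) of 84 summits, and away from gene ends it was 19.1% (14.3 to 24.6%) of 241. The range of 10 or more has no upper limit, and scores within it were not matched between these places. The difference between places was not tested.

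**Figure D2:**
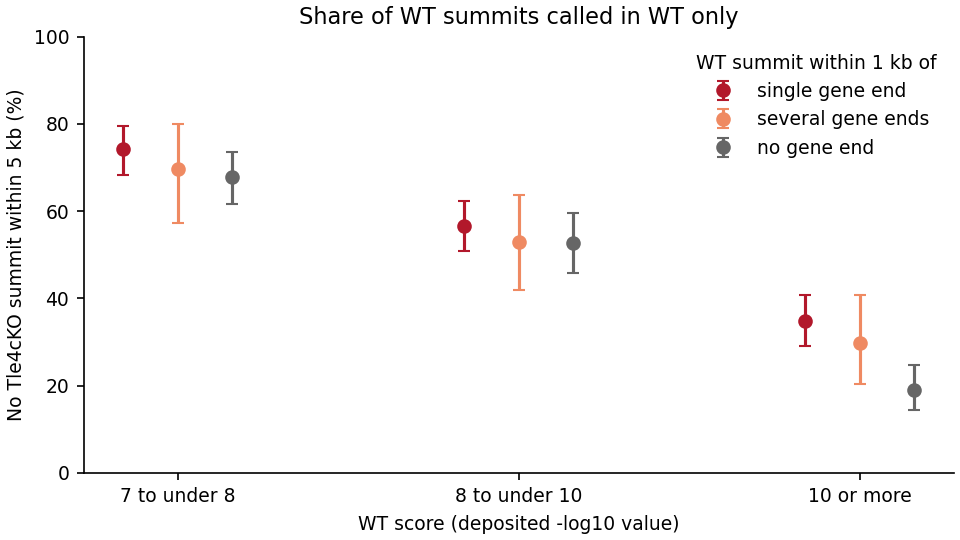
Percentage of WT summits without a Tle4cKO summit within 5 kb (y axis) in 3 ranges of WT score (x axis), for summits near a single gene end (red), several gene ends (orange) or none (grey), with exact 95% intervals as bars. In each location the share is lowest at scores of 10 or more, where it is 34.8%, 29.8% and 19.1%.

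The summits were spread over the chromosomes. Chromosome 7 held the most, 35 of its 67 high-scoring single-gene end summits, and the X chromosome the fewest, 11 of 14. The share was lowest on chromosome 13, with 13 of 38 (34.2%, 95% interval 19.6 to 51.4%), and its interval did not reach the 54.7% over all chromosomes. With 20 chromosomes compared, this is a description.

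Most of the summits were far from any Tle4cKO summit. The distance to the nearest one had a median of 227718 bp, 54 of the summits lay over 1000 kb from any, and 90 lay within 50 kb of one. The longest distances were found at Tdrd3 on chromosome 14 (9891813 bp), at Zfp182 (7818876 bp) and Phf8 (7243916 bp) on the X chromosome, at Ccng1 (5372842 bp) and at Gbe1 (4751770 bp). Phf8 encodes a histone demethylase and Gbe1 the glycogen branching enzyme. These distances depend on how many summits were called in Tle4cKO.

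Nearly all of the summits marked the start of the gene and not its far end, which the choice by outer ends did not fix. The RefSeq promoter table gave a start and strand for the genes of 379 of the 454 summits. For 375 of these (98.9%, 95% interval 97.3 to 99.7%) the nearest outer end was the start. The 4 exceptions were Lpxn, Gm525, Stra8 and Ear2. The share was 98.4% (96.3 to 99.5%) for the summits called in both and 95.3% (94.2 to 96.2%) for WT-only summits at single-gene ends with scores under 7, of which there were 2274. Within 1 kb of an annotated start lay 369 of the 379.

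Around the start the summits formed a larger group inside the gene and a smaller one upstream, with fewer between them. Of the 369 summits, 247 (66.9%) lay downstream of the start, at a median of 216 bp, and 121 (32.8%) upstream, at a median of 249 bp. Only 56 (15.2%, 95% interval 11.7 to 19.3%) lay within 100 bp of the start itself. Gosr1 had its summit 224 bp after the start, Use1 182 bp after it and Siah1b 120 bp after it. Calm3 had its summit 347 bp before the start, and 0610009B22Rik 278 bp before it. Cacybp showed both places, with a summit of 7.86 at 270 bp before the start and one of 7.16 at 207 bp after it.

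**Figure D3:**
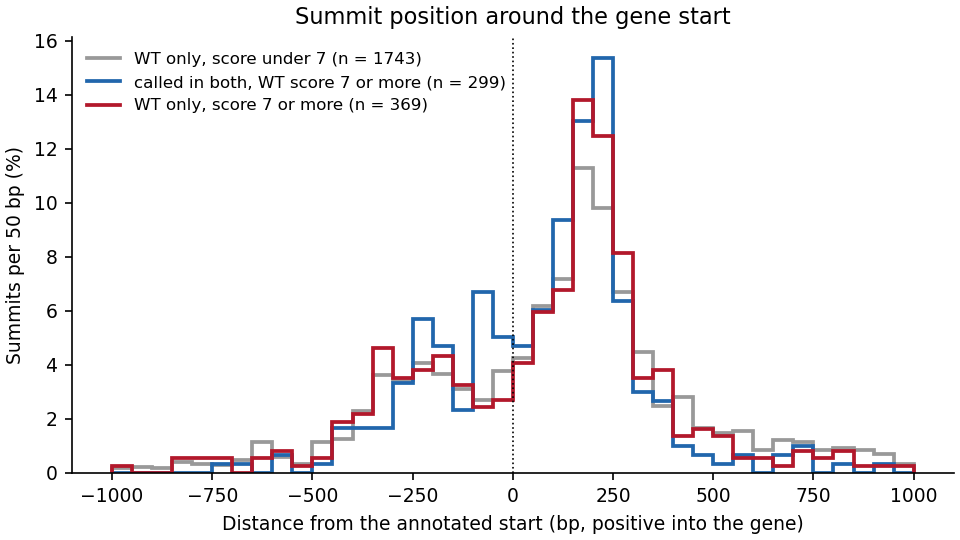
Percentage of summits per 50 bp (y axis) by distance from the nearest annotated start of the gene (x axis, bp, positive into the gene), for WT-only summits of score 7 or more (red, 369), summits called in both (blue, 299) and WT-only summits of score under 7 (grey, 1743). All 3 groups are highest between 150 and 250 bp into the gene and have a smaller group upstream.

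The place of the summits called in both was compared with this. Of 299 of them, 67 (22.4%, 95% interval 17.8 to 27.6%) lay within 100 bp of it, and the upstream group had its median at 190 bp. In the range of scores from 7 to under 8, the share within 100 bp was 19.5% (13.5 to 26.6%) of the WT-only summits and 17.3% (8.23 to 30.3%) of those called in both. At 10 or more it was 14.5% (7.45 to 24.4%) of 76 and 28.3% (21.1 to 36.3%) of 145. From 8 to under 10 it was 10.8% (6.17 to 17.2%) of 139 and 16.7% (10.0 to 25.3%) of 102. The intervals overlapped in each range, which a difference in either direction would allow, and the difference was not tested.

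Other WT summits at the same genes were counted in windows around the gene. In 147 of 454 cases (32.4%, 95% interval 28.1 to 36.9%) the gene had another WT summit within it or up to 10 kb away, against 30.2% (25.5 to 35.1%) of the summits called in both. With a window of 50 kb the share was 70.5%. Elmo1, which activates Rac in the engulfment of dying cells, had 5 such summits beside its own of 7.01. Samsn1 had 4, and Gsk3b, the kinase of the Wnt and insulin pathways with a score of 12.6, had 3. A second WT summit within 1 kb was seen for 17 of the 454. The end of a non-coding gene lay within 1 kb of 71 summits (15.6%, 12.4 to 19.3%), so that a single protein-coding gene does not mean a single transcript. The start of another gene on the opposite strand lay within 1 kb in 50 of 379 cases (13.2%), against 12.7% of the summits called in both.

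Some genes with a WT-only summit at the start had a Tle4cKO summit elsewhere. In 40 of 454 cases (8.81%, 95% interval 6.37 to 11.8%) a Tle4cKO summit lay in the gene or within 10 kb of it, and for 15 of the 39 genes it lay inside the gene. There were 40 distinct Tle4cKO summits of this kind, and 27 of them had a WT summit within 500 bp. The highest WT-only scores in this set belonged to Cdkl3 (12.1), Nepro (11.8), Ccdc93 (11.6), Rfc4 (11.4), a subunit of the clamp loader of DNA replication, and Trip11 (11.3), a Golgi protein. In Ccdc93 a site 53104 bp away inside the gene scored 8.21 in WT and 6.76 in Tle4cKO. The cases that follow were picked after their values were seen. In Batf, a transcription factor of the AP-1 family, the summit 401 bp after the start was called in WT alone (7.52). A site 18403 bp away inside the same gene was called in both, with scores of 8.98 in WT and 2.66 in Tle4cKO. Zfand3 showed the same layout, with 8.16 at its start in WT alone and an internal site of 29.6 in WT and 18.5 in Tle4cKO. In Tomm70a, an import receptor of the outer mitochondrial membrane, the internal Tle4cKO summit of 3.69 had no WT summit nearer than that at the gene start, 9430 bp away. At Pnn and Polr2d the Tle4cKO summits lay outside the gene, beside WT summits of 10.9 and 10.3.

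Gene groups were counted over 46 lists, 33 of pathways or families and 13 of cell type markers. Of the 453 genes, 142 were in at least one list and 311 in none. Beside each count stands the number of genes of that list with any single-gene end WT summit of score 7 or more. Over all genes 453 of 828 such genes carried a WT-only summit, which is the 54.7% background by genes. Because the choice of summits fixes this contrast, nothing is read from how a list compares with it. The WT-only share of a whole list is set beside 2.09%, the share over all protein-coding genes. Differences from that share were not tested.

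Genes of vesicle transport between the endoplasmic reticulum and the Golgi were among the most frequent. WT-only genes were 10.3% of this list, against 2.09% over all genes. Of the 24 marked genes in this list of 145, 15 (62.5%) were called in WT alone and 9 in both. Over all marked genes the WT-only share was 54.7%. Both classes hold genes of several steps of the route, and Gosr2 (13.7), Copb2 (11.04) and Sec23b (10.9) were called in both. The WT-only genes are named here. Sec24c (11.1), Sec23a (7.17) and Sec24a (7.11) form the coat of vesicles that leave the endoplasmic reticulum, and Arcn1 (8.77) and Copz1 (7.64) are subunits of the coat for the way back. Gosr1, Use1, Sec22a (10.9) and Bet1 (9.65) are SNAREs or SNARE-related proteins that fuse these vesicles with their targets. Tmed10 (8.90) and Tmed1 (9.39) are cargo receptors and Cog3 (8.86) belongs to a Golgi tether. Stx4a (10.6), Vamp2 (10.0) and Vamp8 (8.38) act later, at the plasma membrane and in endosomes.

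Lists of protein breakdown and folding were also counted. WT-only genes were 12.9% of the proteasome list, 6.93% of chaperones and 6.12% of autophagy genes. They were 3.01% of ubiquitin conjugation genes, near the 2.09% over all genes. In the proteasome list 8 of 13 marked genes were WT-only. Psmb5 (11.4), Psmb4 (8.62), Psmb1 (8.35) and Psmb2 (7.12) encode beta subunits of the catalytic core, Psma1 (9.77) an alpha subunit, Psmd2 (8.45) and Psmc6 (8.02) parts of the regulatory cap, and Psme3 (9.54) an activator. Of 25 marked genes of ubiquitin conjugation, 12 were WT-only, led by Siah1b, the deubiquitinase gene Usp8 (11.4) and Cul5, a scaffold of ubiquitin ligases (11.1). Among chaperones the count was 7 of 9, with Cct2 (10.2) and Tcp1 (8.18), subunits of the chaperonin that folds actin and tubulin, Bag3 (8.04) and Dnajb9 (7.08). In the autophagy list it was 3 of 5, and all 3 genes, Gabarapl1 (9.09), Gabarap (8.09) and Map1lc3b (7.40), encode ubiquitin-like proteins that are attached to the autophagosome membrane.

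Lists of transcription and RNA processing were treated in the same way. WT-only genes were 5.0% of the RNA polymerase and cofactor list, 5.33% of splicing genes and 4.84% of nuclear transport genes. They were 2.73% of chromatin modifiers, near the 2.09% over all genes. Of 7 marked genes of RNA polymerases and their cofactors 6 were WT-only. They were the RNA polymerase II subunit genes Polr2d (8.30) and Polr2c (7.01), the Mediator genes Med16 (9.93), Med28 (7.88) and Med13 (7.86), and Brf1 (9.53), an initiation factor of RNA polymerase III. Of 14 marked splicing genes 8 were WT-only, including Rbm25 (10.0), Prpf8 (7.76), the core of the U5 particle, and Srsf2 (7.06). Chromatin modifiers gave 5 of 13, with Mbd5, Ino80, the motor of a nucleosome remodeller (11.1), Arid4a (8.74), Phf8 (7.95) and Kdm8 (7.202). Nuclear transport gave 3 of 8, Nup205 (10.7), Kpna4 (9.58) and Ndc1 (7.08).

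Zinc finger genes with the symbol Zfp made up the longest entry, 24 of 43 marked genes in a family of 397. The 24 were 6.05% of the family, against 2.09% over all genes. Their scores ran from 12.7 at Zfp39 and 11.8 at Zfp866 down to 7.06 at Zfp973, Zfp110 and Zfp426. Many of these genes lie in clusters of close copies, so the placement of reads between them is uncertain. This holds for the family members Zfp971, Zfp965 and Zfp973 on chromosome 2.

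**Figure D4:**
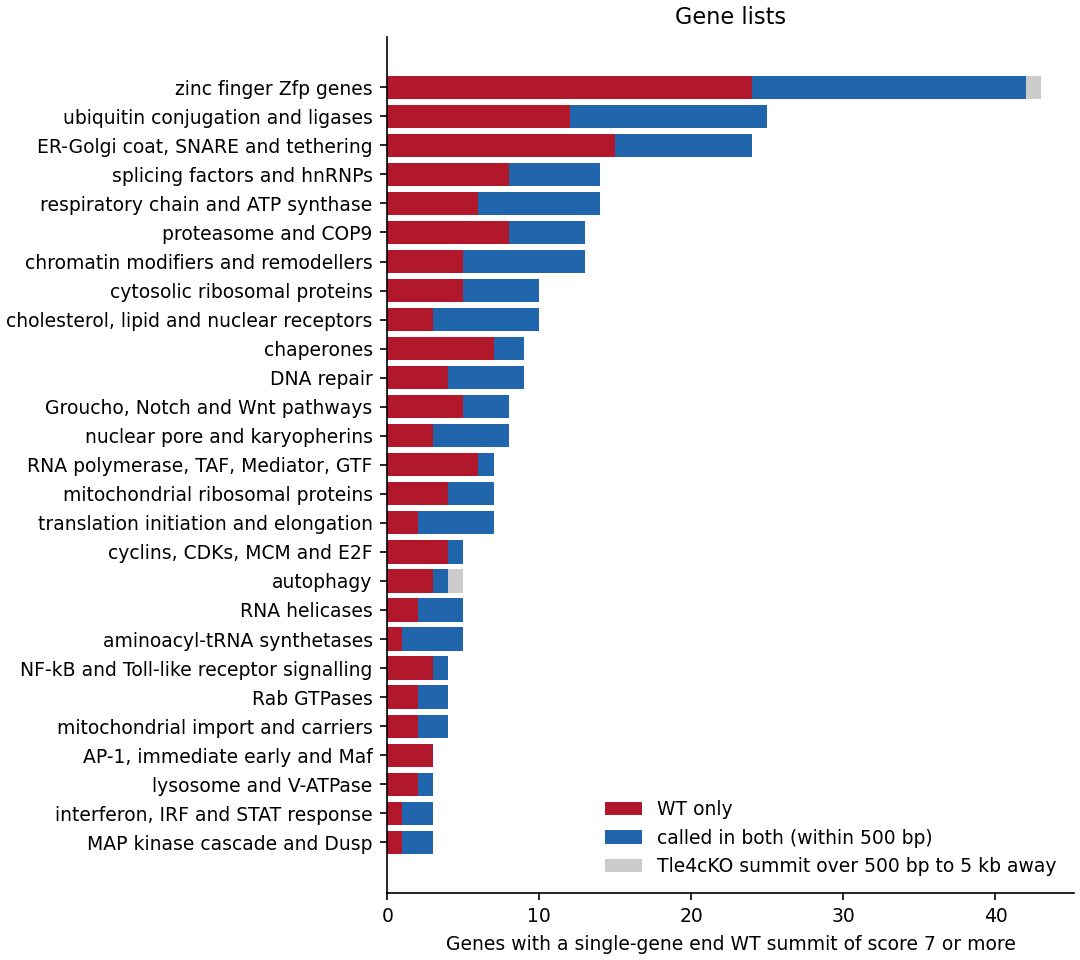
Number of genes with a single-gene end WT summit of score 7 or more (x axis) in each list that had at least 3 of them (y axis), split into genes called in WT only (red), called in both within 500 bp (blue) and with a Tle4cKO summit over 500 bp to 5 kb away (grey). The longest bars are the Zfp genes (43), ubiquitin conjugation (25) and vesicle transport (24), and each bar holds genes of both main classes except AP-1 and Maf, where all 3 genes are WT-only.

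Like the lists above, mitochondrial genes and ribosomal genes were split between the classes. WT-only genes were 5.41% of the respiratory chain list, 5.13% of mitochondrial and 5.95% of cytosolic ribosomal proteins. They were 2.53% of translation factors and 2.70% of aminoacyl-tRNA synthetases, near the 2.09% over all genes. In the respiratory chain list 6 of 14 marked genes were WT-only. They were Cox10 (12.6), needed to make the heme of cytochrome oxidase, the complex I genes Ndufc1 (10.1), Ndufa6 (7.71) and Ndufb6 (7.27), the oxidase subunit gene Cox8a (7.54) and Atp5mpl (9.95). Mitochondrial ribosomal proteins gave 4 of 7, with Mrpl17 (9.99) the highest, and cytosolic ribosomal proteins 5 of 10, among them Rps15 (9.19), Rps13 (8.84) and Rplp0 (7.40). Outside the lists, Mfn2 (10.96), which fuses mitochondria, and Mff (9.58), the receptor that recruits the fission protein of Dnm1l, were also WT-only, and were chosen for mention after their values had been seen. Translation factors gave 2 of 7, Eif2s3x (10.2) and Eef1a1 (7.51), and aminoacyl-tRNA synthetases 1 of 5, Yars2 (9.83).

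Lists of cell division and genome upkeep had WT-only shares near the 2.09% over all genes. These were 3.36% of the cyclin list, 2.99% of DNA repair genes, 3.39% of Rab GTPases, 3.39% of RNA helicases and 1.28% of the MAP kinase list. In the list of cyclins, CDKs, MCM and E2F genes 4 of 5 marked genes were WT-only. Cdc23 (8.02) and Cdc16 (7.54) are subunits of the anaphase-promoting complex, Cdk7 (8.17) is the kinase of the general factor TFIIH, and Ccng1 (8.92) is a cyclin induced by p53. DNA repair gave 4 of 9, namely Rad51d (9.82) of homologous recombination, Rmi1 (8.16), Parp2 (7.46) and Rad23b (7.37), which acts in nucleotide excision repair. Rab GTPases gave 2 of 4, Rab30 (12.7) and Rab11a (7.28), RNA helicases 2 of 5, Ddx1 (7.56) and Dhx15 (7.53), and the MAP kinase cascade 1 of 3, Braf (7.23).

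Signalling and immune lists were read beside the 3.83% of all protein-coding genes that had a high-scoring single-gene end summit in either class. That share was 6.15% for NF-kB and Toll-like receptor signalling, 5.17% for AP-1, immediate early and Maf genes, 7.92% for the Groucho, Notch and Wnt list, 3.90% for the interferon list and 1.31% for interleukins, chemokines and their receptors. NF-kB and Toll-like receptor signalling gave 3 WT-only genes of 4. They were Ripk2 (8.67), the kinase below the sensors Nod1 and Nod2, Chuk (7.74), a catalytic subunit of the IkB kinase, and Rela (7.48), the p65 subunit of NF-kB. The other marked gene of this list was called in both. The AP-1, immediate early and Maf list gave 3 of 3, Atf7, Atf4 (7.53) and Batf. In the Groucho, Notch and Wnt list 5 of 8 were WT-only. Among them, Adam17 (10.4) and Adam10 (7.08) encode the proteases that cut Notch at the cell surface, Mib2 (8.52) a ubiquitin ligase for Notch ligands and Gsk3b the kinase that marks beta-catenin for breakdown. Rela is in this list as well.

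The other immune and lipid lists gave 0 to 3 WT-only genes each. WT-only genes were 2.08% of the lysosome list and 3.61% of the lipid list, against 2.09% over all genes. The interferon list had 1 WT-only gene of 3, Ifit3 (7.76), and the interleukin and chemokine list 1 of 2, Il3ra (8.38), the alpha chain of the interleukin 3 receptor. The lysosome list had 2 of 3, Lipa (10.4) and the sialidase gene Neu1 (7.02). The list of cholesterol, lipid and nuclear receptor genes had 3 of 10, Acat2 (12.1), Lipa and Nr1d2 (8.41), a repressor of the circadian clock. The TNF superfamily list and the TGF-beta list had 0 genes with a high-scoring single-gene end summit, and the 2 such genes of the MHC class II list were called in both.

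Markers of the macrophage lineage were counted next. Over all protein-coding genes 2.09% carried one of these summits, so lists of this length hold few or none at that share and nothing is read from a low count. None of the 35 macrophage identity genes had one, and the 2 with a high-scoring single-gene end summit were called in both. In the list of resident gut macrophages 1 gene of 29, Selenop (9.83), had a WT-only summit, and among 15 monocyte genes 0 did. The 10 lists for other cells of the colon hold 188 genes, and 9 of the lists had no gene among these summits. The other was the eosinophil list, with 1 of 15, Ear2 (8.60), although the sort took Siglec-F-negative cells, a gate that removes eosinophils. The Ear2 summit lay 580 bp from the far end of the gene, 1457 bp from its start. Ear2 belongs to a family of close copies, so that its assignment is uncertain, and the other 14 eosinophil genes had no high-scoring single-gene end summit.

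The promoter windows of the marked genes were rich in G, C and CpG. Only 79 of 379 summits (20.8%) lay inside a window of their gene. For the others the measures of sequence and motifs describe DNA outside the summit. Over the 378 windows without unknown bases, one for each summit, GC content had a median of 60.5% (middle range 55.3 to 67.0%) and the CpG ratio a median of 0.80 (0.67 to 0.91). The medians were 60.7% and 0.79 for the summits called in both and 56.7% and 0.57 over all 21037 windows of protein-coding genes, which include alternative starts. A CpG ratio under 0.4 was found in 29 of 378 windows (7.67%, 95% interval 5.20 to 10.8%), in 9.77% (6.69 to 13.7%) of those called in both and in 38.8% of all windows. Gene lengths had a median of 24176 bp, against 25187 bp for the genes called in both and 17329 bp over all genes.

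The 29 CpG-poor windows belonged to genes of mixed function, and those named here were picked after their values were seen. Besides Lipa, Selenop, Ifi206 and Clec4a3 they included the signal-regulatory protein genes Sirpb1c (9.57) and Sirpb1b (7.16), the leukocyte receptor gene Lilr4b (8.25), Ifi213 (8.30), Ifit3, Samsn1 (7.54), an adaptor of haematopoietic cells, and Sh2d1b1 (7.76), an adaptor of lymphocyte receptors. Zfp971, Zfp729a, Zfp965 and Zfp973 were also among them, as was Gm13277 (7.02), in a run of interferon genes on chromosome 4. The rest were Rbm25, Heatr6, Mab21l3, Gm11545, Ear2, Vamp8, Gm525, Gm14434, Dao, Arhgap5, Dennd4a, Luc7l2 and Snrpa1, among which Rbm25, Luc7l2 and Snrpa1 encode splicing factors and Vamp8 a SNARE. In 7 of the 29 the summit lay over 1 kb from the start of the window, so the window is not the marked place. Sirpb1, Lilr4b, Ifi200 and interferon genes have near-identical relatives, and reads could have been placed at either copy.

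Motifs were searched on both strands in the same windows. The motifs with the largest shares were the GC box (GGGCGG, bound by SP and KLF factors), in 70.4% (95% interval 65.5 to 74.9%) of the 378 windows, and the CCAAT box of NF-Y, in 41.3% (36.3 to 46.4%). The ETS core CCGGAAG was found in 21.4% (17.4 to 25.9%), the CRE core TGACGT in 17.7% (14.01 to 21.96%), the HES core CACGCG in 16.9% and the YY1 core ATGGCGG in 12.4% (9.28 to 16.2%). Over all 21037 windows these shares were 46.7%, 38.5%, 11.7%, 8.58%, 12.3% and 5.29% in the same order. Among the 307 windows of the summits called in both they were 61.6%, 43.0%, 23.1%, 18.9%, 16.9% and 10.4%. The intervals for the GC box, ETS, CRE, HES and YY1 lay above the shares over all windows, and that for CCAAT included its share. The higher GC content of the windows moves with these shares and its part in them was not tested.

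**Figure D5:**
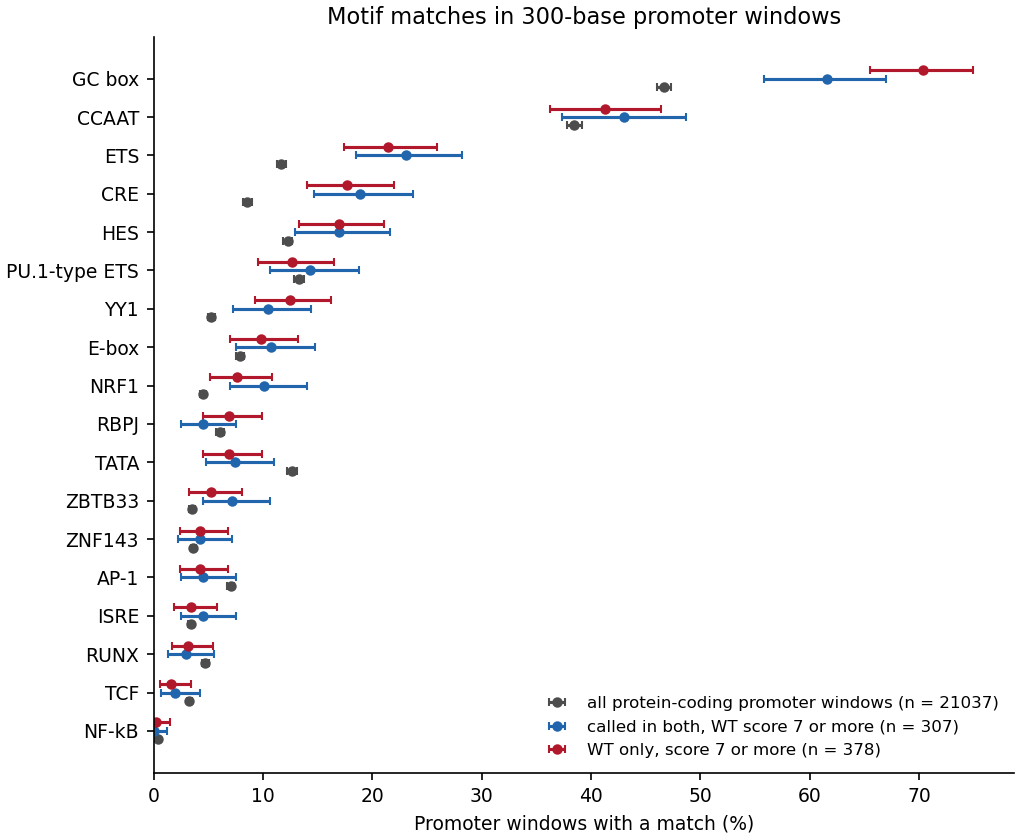
Percentage of 300-base promoter windows with at least 1 match on either strand (x axis) for 18 motifs (y axis), for WT-only summits of score 7 or more (red, 378 windows), summits called in both (blue, 307) and all windows of protein-coding genes (dark grey, 21037), with exact 95% intervals as bars. The red and blue intervals overlap for each motif, and the GC box is the most frequent in all 3 groups at 70.4%, 61.6% and 46.7%.

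Motifs of inducible and myeloid factors were compared in the same way. The PU.1-type core GAGGAAG was found in 12.7% (9.51 to 16.5%) of windows against 13.3% over all windows, the AP-1 core TGANTCA in 4.23% (2.44 to 6.78%) against 7.04%, and the TATA element TATAAA in 6.88% (4.54 to 9.92%) against 12.7%. The ISRE pattern, GAAA repeated after 2 bases, was in 3.44% against 3.38%, and the NF-kB pattern, GGGA and TTTCC with 1 base between, in 1 window of 378 (0.265%) against 0.428%. Factors that work with Groucho proteins include those of the HES, RUNX and TCF families, and RBPJ is the DNA-binding factor of Notch signalling. The HES core was in 16.9% (13.3 to 21.1%) of windows against 12.3%, as given above, and also in 16.9% of windows of the summits called in both. The RUNX core TGTGGTT was in 3.17% (1.65 to 5.48%) against 4.74%. The TCF core CTTTGAT was in 1.59% (0.585 to 3.42%) against 3.25%, and the RBPJ core GTGGGAA in 6.88% (4.54 to 9.92%) against 6.07%. The intervals for the PU.1-type core, ISRE, NF-kB, RUNX, TCF and RBPJ included the share over all windows. Those for AP-1 and TATA lay below it, and that for HES lay above it. The remaining shares were 9.79% for the E-box CACGTG, 7.67% for NRF1 (CGCATGC), 5.29% for ZBTB33 (TCTCGCG) and 4.23% for ZNF143 (ACTACAA). Over all windows they were 7.91%, 4.48%, 3.51% and 3.64%. The interval for NRF1 (5.20 to 10.8%) lay above its share over all windows, and those for the E-box, ZBTB33 and ZNF143 included theirs. The ETS and PU.1-type cores share GGAAG, and the E-box and HES cores share CACG. For each of the 18 motifs the interval overlapped that of the summits called in both, which a difference in either direction would allow.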

How the data were processed

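The authors deposited 1 list of summits per library, each a position of 1 bp with a score in −log10 units of a p-value or q-value. Which of these it is, and the peak caller, settings and control, were not given in the sources used here. That unit was read from the layout and from the lowest scores, 1.35 in WT and 1.37 in Tle4cKO. Per the submitters' processing notes, cutadapt 1.14 and Bowtie2 2.2.5 were used with build mm10. The authors pooled cells of 4 mice per genotype, and the read depth is unknown. Sorted cells of 1 pool give no replicate error.

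Summits were taken from chromosomes 1 to 19 and X, counted from base 1, and set against the outer ends of 21631 protein-coding genes and the promoter windows of RefSeq on GRCm38.p6. A gene can have several windows, and the one nearest to the summit was used. The 75 summits whose genes were not in the promoter table, and 1 window with unknown bases, were left out of the sequence measures. Shares have exact Clopper-Pearson 95% intervals. No test was run between genotypes or between groups of genes.

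The summits, gene lists and motifs were chosen with earlier results of these data known. Named genes were those with the 20 highest scores, up to 3 per list, those at the thresholds, those farthest from and nearest to Tle4cKO summits, genes with 2 of the summits, and up to 5 by score whose gene has a Tle4cKO summit in it or within 10 kb. Further members of a list and the other genes said to be so were chosen after their values were seen. Alternatives were other score minimums, windows and distances, autosomes only and merged summits. Python 3.11.15, pandas 2.3.3, numpy 2.4.6 and scipy 1.17.1 were used, and the steps were tested on simulated data.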

Additional observations from a re-analysis of the deposited data

How the results depend on the processing

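The number of summits rose from 454 to 1165 with a score minimum of 5 and was 96 with a minimum of 10. Their share of the single-gene end summits at or above the minimum was 65.6% and 34.8% under these minimums, and 43.9% when no Tle4cKO summit was allowed within 50 kb. The share at the gene start was 97.2% and 100% under the 2 score minimums. The share of genes with another WT summit was 24.01% with a window of 5 kb and 70.5% with one of 50 kb, and the share with a Tle4cKO summit was 5.29% and 26.2%. The other 19 values for counts, shares, GC content and CpG ratio stayed within 1.5 times the reported count, within the interval of the reported share or within 1 standard deviation. They came from gene-end windows of 500 bp and 2 kb, distances of 500 bp and 50 kb, autosomes only, merged summits and summits within 1 kb of a start. Of 36 motif shares under the alternatives, 33 stayed within the interval. With a score minimum of 10, the share was 13.2% for ETS, 63.2% for the GC box and 0% for NF-kB. No paired analysis was possible because there is 1 library per genotype. Unknown depth and the absence of replicates limit every count.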
